A study of Mus musculus with 62 samples.

Results

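The week 8 comparison of hearts from cachectic and non-cachectic tumour-bearing mice is described here across all measured genes. Its members are the 7 libraries labelled CAC at week 8 and the 5 libraries labelled NCAC at week 8, which makes 12 of the 62 libraries of the series. RNA was taken from whole hearts of female mice, aged 2 months per the labels, at 2, 4, 6 and 8 weeks after the injection of cells. CAC mice carried melanoma cells that cause cachexia, NCAC mice carried melanoma cells that do not, and Con mice had a mock injection without tumour cells. The labels give the strain as C57BL6/J, whereas the design text names NCI Ath/nude mice, an immunodeficient strain that lacks a normal thymus, and the conflict is not settled here. The 2 tumour arms received different melanoma cells, so that the cachectic state and the identity of the injected cells cannot be told apart. The labels call the hearts biological replicates, and the 5 Con hearts of week 8 appear only as values beside the comparison.

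Cachexia is a wasting syndrome of advanced cancer in which muscle and fat are lost and which food alone does not reverse. Cytokines of the interleukin-6 family signal through JAK kinases and the transcription factor STAT3, which in liver and in other tissues drives secreted acute-phase proteins and the feedback inhibitor SOCS3. Glucocorticoids, released from the adrenal cortex during illness and fasting, act on many of the same promoters. The heart is a working muscle that burns mainly fatty acids in abundant mitochondria, and it answers load, hormones and inflammation by altering genes of contraction, calcium cycling, ion channels and fuel use. In cachexia the heart can lose mass along with skeletal muscle.

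Expression is given as rescaled TPM, which is the deposited TPM (transcripts, corrected for length, as a share of each library) multiplied by 1 factor per library so that the typical gene sits at the same level in all 12. Differences are CAC minus NCAC on the scale of log2(rescaled TPM + 1), with the standard error of the limma fit. A gene is called where its limma p, adjusted over all tested genes by Benjamini-Hochberg, is below 0.05. The read depth recovered from the TPM values was 45350000 to 49050000 reads in CAC and 45550000 to 48190000 reads in NCAC hearts, so that depth was alike in both arms. Rescaling mattered: with TPM as deposited the median log2 difference over all genes was 0.24, against 0.01 after rescaling. The cardiac identity of the tissue was clear, since Myh6 averaged 4175 ± 1072 rescaled TPM in CAC hearts against 7392 ± 611 in NCAC hearts (SD, n = 7 and 5). Markers of lung and thymus tissue did not reach the expression filter in these 12 libraries. The filter asks for 5 libraries, however, and their summed level was 7.40 rescaled TPM in the highest NCAC heart, against an NCAC median of 0.413.

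CAC replicate 3 stood apart from the other CAC hearts. Over 664 genes that were called and differed by at least 1 on the log2 scale when this library was left out, it lay at a median of 33.5% of the distance between the NCAC mean and the mean of the other CAC hearts, with quartiles of 16.5 and 50.3%. On those genes it was beyond the NCAC mean in the opposite direction for 63 and beyond the mean of the other CAC hearts for 10. Among the 63 were Tfrc (-57.69%), Hamp (-6.24%), Retnla (-4.86%) and Fbxo31 (-0.62%). The other 6 CAC hearts, each placed in the same way over genes chosen without it, had medians of 103.2 to 119.9%. The same library held the most haemoglobin transcript, with summed erythroid markers of 36353 rescaled TPM against 2291 to 7245 in NCAC hearts. Its label places it in the CAC group. Values without it are given beside the results of single genes that turn on it and beside counts by gene list that moved by over 1.5 times and by at least 2 members.

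**Figure D1:**
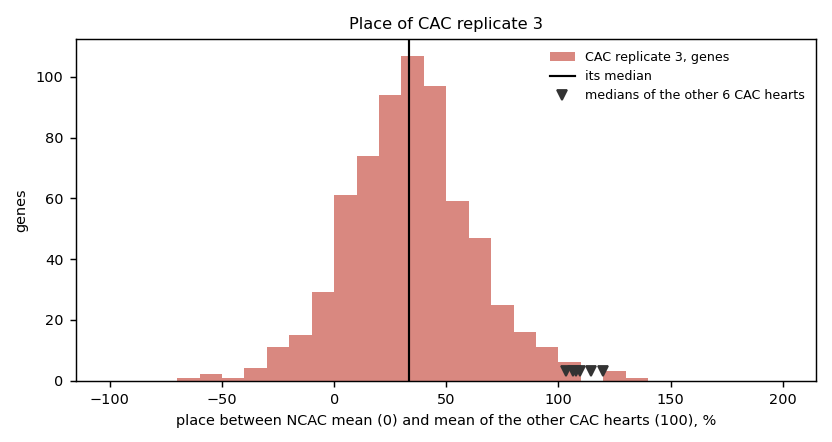
Position of CAC week 8 replicate 3 on the way between the NCAC mean (0%) and the mean of the other 6 CAC hearts (100%), as a histogram over 664 genes chosen without that library, with values beyond -100 and 200% drawn in the end bins, the number of genes on the vertical axis and triangles for the medians of the other 6 CAC hearts. Most genes lie between both ends, with the median at 33.5%, and the triangles lie at 103.2 to 119.9%. For each triangle the 100% mark is the mean of the remaining CAC hearts, replicate 3 included, and not that of the axis.

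Of 12073 genes tested, 5000 were called (41.4%), 2590 higher (21.5%) and 2410 lower (20.0%) in CAC hearts. Counts by gene list below are to be read beside the shares of 21.5% and 20.0%. At least 1 log2 unit of change was found in 384 genes higher (3.18%) and 140 lower (1.16%). Of the same 12073 genes, the ranges of the groups did not overlap for 1168 with all CAC hearts above and 876 with all CAC hearts below. A lack of overlap was therefore common and does not by itself set a gene apart. With the TPM as deposited the split was 6042 higher (49.9%) and 862 lower (7.12%) of 12102 genes, with 583 (4.82%) and 75 (0.62%) by at least 1. With mitochondrially encoded and haemoglobin genes taken out before the TPM were formed anew it was 4016 higher (33.3%) and 1484 lower (12.3%) of 12071, a scaling that moved the median gene by 0.12 on the log2 scale. Small differences therefore take their sign from the scaling, whereas no gene was called in opposite directions by the deposited and the rescaled values. In a voom fit of reads recovered from the TPM, chosen after seeing the data, 2646 of 14300 genes were higher (18.5%) and 2742 lower (19.2%), with 833 (5.83%) and 442 (3.09%) by at least 1. Without CAC replicate 3 the calls were 3010 higher and 2765 lower of 12032 genes, with 471 higher (3.91%) and 193 lower (1.6%) by at least 1, and 4930 of the 5000 calls were kept in the same direction.

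Genes of the acute-phase response were among the 12 leading rises, which also held Ccl8, Mt2, C4b, Cxcl13 and Clca3a1. Serpina3n, a secreted inhibitor of serine proteases (chr12:104406729-104414329, plus strand), had 60.5, 1702 and 2589.8 rescaled TPM in the lowest, median and highest CAC hearts, against 3.94, 3.57, 5.21, 2.55 and 1.88 in the NCAC hearts (log2 difference 8.08 ± 0.77, adjusted p = 2.28e-05). Even the lowest CAC heart, replicate 3, was above every NCAC heart, and the Con hearts averaged 2.63 ± 0.794. Lcn2, lipocalin 2, which binds bacterial iron carriers, had 3.55, 245 and 311 rescaled TPM in the lowest, median and highest CAC hearts, against 0.973, 1.45, 2.09, 0.592 and 0.614 in the NCAC hearts (log2 difference 6.07 ± 0.89, adjusted p = 0.000271). The lowest CAC value was again that of replicate 3, and without that library the difference was 6.90. Socs3, the feedback inhibitor of JAK kinases, had 10.1, 53.96 and 94.5 rescaled TPM in the lowest, median and highest CAC hearts, against 2.60, 2.38, 1.70, 1.82 and 3.10 in the NCAC hearts (log2 difference 3.91 ± 0.41, adjusted p = 4.24e-05). No CAC heart overlapped the NCAC range. Itih4, an acute-phase protein of the inter-alpha-trypsin inhibitor family, averaged 32.2 ± 12.4 rescaled TPM in CAC hearts against 0.976 ± 0.285 in NCAC hearts (log2 difference 3.94 ± 0.34, adjusted p = 1.48e-05). Saa3, a serum amyloid A made outside the liver in mice, averaged 56.7 ± 46.2 rescaled TPM in CAC hearts against 0.341 ± 0.374 in NCAC hearts (log2 difference 4.67 ± 0.83, adjusted p = 0.000864). For the members of the Serpina3 and serum amyloid A families, reads can be shared between near-identical copies, so the split between Serpina3n, Serpina3i (log2 difference 4.56 ± 0.32, adjusted p = 8.4e-06) and Serpina3m (log2 difference 4.32 ± 0.69, adjusted p = 0.000455) is uncertain. In the voom fit the calls of Saa3 (adjusted p = 0.129) and Serpina3m (adjusted p = 0.141) were not made.

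The other leading rises were an attractant of monocytes, a metal-binding protein, a complement factor, an attractant of B cells and a member of the chloride channel accessory family. Ccl8, the monocyte attractant, had 34.8, 123 and 310.3 rescaled TPM in the lowest, median and highest CAC hearts, against 3.09, 1.04, 0.894, 1.197 and 1.205 in the NCAC hearts (log2 difference 5.61 ± 0.49, adjusted p = 1.6e-05). The CAC hearts were all above the NCAC hearts. Mt2, a metallothionein that binds zinc and copper and answers both metals and glucocorticoids, had 213, 1817 and 2552 rescaled TPM in the lowest, median and highest CAC hearts, against 24.96, 26.6, 65.7, 23.4 and 30.2 in the NCAC hearts (log2 difference 5.34 ± 0.55, adjusted p = 3.81e-05). Both groups were apart for Mt2 as well, and Con hearts averaged 22.7 ± 15.9. C4b, a component of the classical complement pathway with a near-identical neighbour in C4a, averaged 69.9 ± 22.1 rescaled TPM in CAC hearts against 3.04 ± 1.08 in NCAC hearts (log2 difference 4.09 ± 0.28, adjusted p = 8.4e-06). Cxcl13, which draws B cells, averaged 18.6 ± 12.01 rescaled TPM in CAC hearts against 0.0759 ± 0.0379 in NCAC hearts (log2 difference 3.73 ± 0.62, adjusted p = 0.000581; in the voom fit adjusted p = 0.0804). Clca3a1 averaged 28.3 ± 15.7 rescaled TPM in CAC hearts against 0.356 ± 0.183 in NCAC hearts (log2 difference 4.14 ± 0.48, adjusted p = 6.42e-05). For all 12 leading rises each of the 7 CAC hearts was above all 5 NCAC hearts, which is in part what the naming rule asked for. The expression filter, at least 1 rescaled TPM in 5 libraries, adds to this. Saa3, Itih4, Cxcl13 and Clca3a1 had NCAC means below 1 and needed the CAC hearts, where they are high, to pass it. Their higher CAC values are therefore in part what the filter selected. Without CAC replicate 3 the log2 differences were larger, 8.79 for Serpina3n, 5.32 for Saa3, 5.78 for Mt2 and 4.27 for Socs3.

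**Figure D2:**
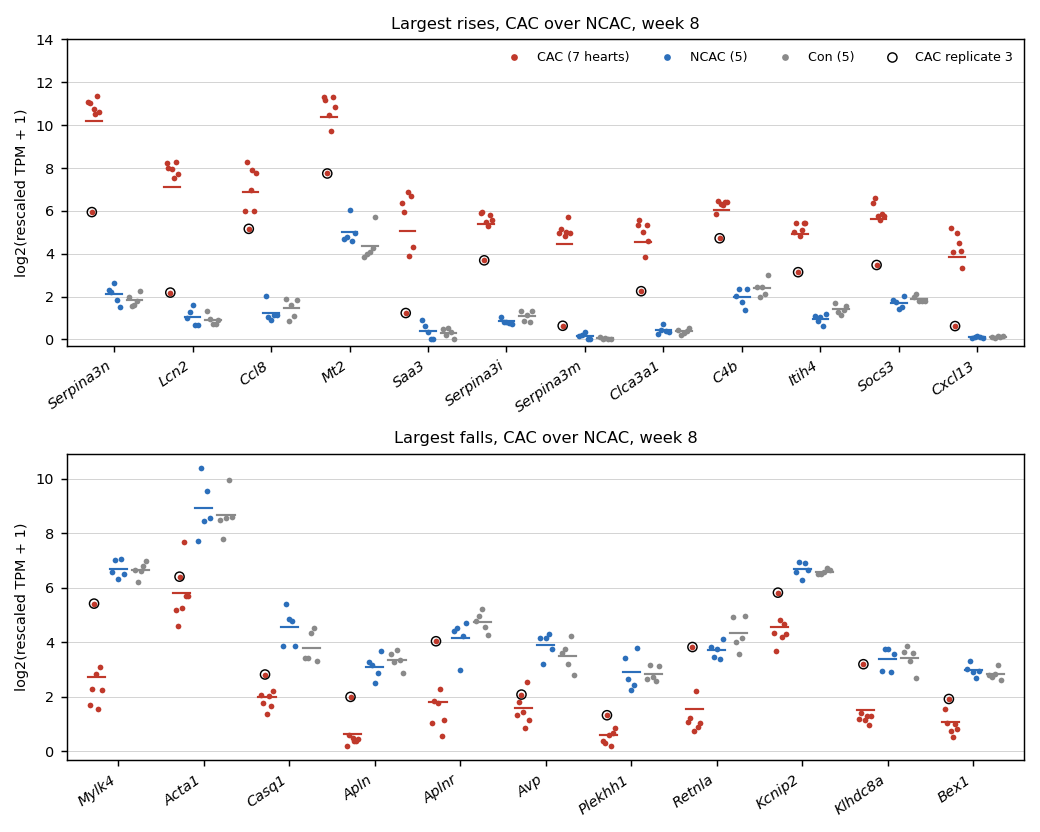
Log2(rescaled TPM + 1) of the 12 leading rises and 11 of the leading falls in each CAC heart (left), NCAC heart (middle) and Con heart (right) of week 8, 1 point per heart, a bar for the mean and CAC replicate 3 marked. For the rises the marked heart sits at the low end of the CAC points, as for Serpina3n, where it had 60.5 against a CAC median of 1702.

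Promoter sequences are shown for 6 of these genes because they hold short motifs tied to the pathways named above. Each covers the 250 bases before the start of the gene, 5′ to 3′ on the gene's own strand, from RefSeq on GRCm38.p6. Socs3 lies at chr11:117969367-117969616 on the minus strand, Itih4 at chr14:30886226-30886475 on the plus strand, Serpina3i at chr12:104262872-104263121 on the plus strand, Mt2 at chr8:94172368-94172617 on the plus strand, Lcn2 at chr2:32387740-32387989 on the minus strand and Acta1 at chr8:123894776-123895025 on the minus strand. Capitals mark TTCNNNGAA, the core bound by STAT factors, in the first 3 sequences. In Mt2 they mark TGCNCNC, a looser form of the metal response element core TGCRCNC, in which R is A or G. In Lcn2 they mark TTGCNNAA, a core bound by C/EBP factors, and in Acta1 the CArG box, bound by serum response factor. The first base of the match lies 154 bases before the start in Socs3, 51 in Itih4 and 102 in Serpina3i. In Mt2 the 5 matches begin 223, 178, 128, 113 and 50 bases before the start. Those at 178 and 113 hold T in place of R and so match only the looser form. In Lcn2 the match begins 216 bases and in Acta1 73 bases before it.
Socs3: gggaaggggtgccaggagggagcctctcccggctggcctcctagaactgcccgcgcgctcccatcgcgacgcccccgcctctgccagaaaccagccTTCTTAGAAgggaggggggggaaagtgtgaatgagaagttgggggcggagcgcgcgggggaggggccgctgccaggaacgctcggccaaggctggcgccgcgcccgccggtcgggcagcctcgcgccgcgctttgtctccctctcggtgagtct
Itih4: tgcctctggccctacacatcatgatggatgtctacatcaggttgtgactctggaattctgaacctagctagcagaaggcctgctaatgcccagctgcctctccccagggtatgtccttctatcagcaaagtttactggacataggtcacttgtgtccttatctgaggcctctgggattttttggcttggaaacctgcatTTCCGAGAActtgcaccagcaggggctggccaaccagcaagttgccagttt
Serpina3i: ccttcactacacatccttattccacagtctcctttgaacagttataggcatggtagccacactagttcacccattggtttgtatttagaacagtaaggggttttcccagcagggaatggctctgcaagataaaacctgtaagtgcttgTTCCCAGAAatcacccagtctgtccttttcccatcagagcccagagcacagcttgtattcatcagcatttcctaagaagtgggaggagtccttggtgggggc
Mt2: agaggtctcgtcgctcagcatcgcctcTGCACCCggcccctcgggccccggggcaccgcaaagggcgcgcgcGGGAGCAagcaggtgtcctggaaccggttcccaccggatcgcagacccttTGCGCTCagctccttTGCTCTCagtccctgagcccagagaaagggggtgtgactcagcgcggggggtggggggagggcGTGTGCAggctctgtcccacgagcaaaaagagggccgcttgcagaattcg
Lcn2: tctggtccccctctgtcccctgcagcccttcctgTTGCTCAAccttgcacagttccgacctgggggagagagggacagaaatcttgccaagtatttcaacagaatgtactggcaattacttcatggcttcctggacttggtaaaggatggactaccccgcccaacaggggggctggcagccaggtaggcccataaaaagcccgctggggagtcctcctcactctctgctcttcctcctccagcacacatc
Acta1: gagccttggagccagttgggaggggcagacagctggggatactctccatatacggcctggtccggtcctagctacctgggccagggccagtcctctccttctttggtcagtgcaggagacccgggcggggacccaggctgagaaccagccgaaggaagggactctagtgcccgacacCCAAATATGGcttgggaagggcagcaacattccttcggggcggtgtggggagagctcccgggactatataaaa

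Both strands of the same window were searched in every gene with a promoter in the table, which held 10 of the 12 leading rises and 10 of the 12 leading falls. TTCNNNGAA was found in 3 of 10 leading rises and 0 of 10 leading falls, in 11.5% of the 253 promoters of genes higher by at least 1, in 1.94% of the 103 of genes lower by at least 1, and in 6.05% of the 9095 promoters of tested genes. TTGCNNAA was found in 4 of 10 leading rises (Lcn2, Mt2, Saa3 and Cxcl13) and 1 of 10 leading falls, and its shares were 9.09% of the genes higher by at least 1, 7.77% of those lower and 7.26% of tested genes. TGCNCNC, looser than the metal response element core, is so short that 4818 of the 9095 tested promoters held it. It was in 48.6% of the genes higher and 52.4% of the genes lower by at least 1. The CArG box was found in 1.13% of tested promoters, in 1.58% of the genes higher and in 4.85% of the genes lower by at least 1, which were Acta1, Actc1, Asb2, Fhl2 and Hopx. A match describes the letters of the sequence only, and no test was made of these shares.

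The genes that fell the most were muscle isoforms, the apelin pair and a channel subunit. Mylk4, a kinase of the myosin light chain kinase family (chr13:32700834-32783954, minus strand), had 1.89, 3.901 and 41.8 rescaled TPM in the lowest, median and highest CAC hearts, against 93.6, 129.9, 79.8, 131 and 90.8 in the NCAC hearts (log2 difference -3.97 ± 0.53, adjusted p = 0.000162). All CAC hearts were below all NCAC hearts, with replicate 3 the nearest at 41.8. Acta1, skeletal alpha-actin, had 23.2, 51.1 and 205 rescaled TPM in the lowest, median and highest CAC hearts, against 208, 1365, 348, 741 and 378 in the NCAC hearts (log2 difference -3.14 ± 0.53, adjusted p = 0.000647). The groups were apart for Acta1, and Con hearts averaged 465 ± 297. Casq1, the calsequestrin of fast skeletal muscle, averaged 3.15 ± 1.46 rescaled TPM in CAC hearts against 24.5 ± 11.5 in NCAC hearts (log2 difference -2.56 ± 0.29, adjusted p = 5.95e-05). Apln, the peptide apelin, which dilates vessels and raises contractility, had 0.140, 0.378 and 2.99 rescaled TPM in the lowest, median and highest CAC hearts, against 8.71, 7.87, 4.69, 6.32 and 11.8 in the NCAC hearts (log2 difference -2.46 ± 0.29, adjusted p = 6.76e-05). Its receptor Aplnr had 0.464, 2.43 and 15.4 rescaled TPM in the lowest, median and highest CAC hearts, against 20.3, 22.1, 6.91, 17.7 and 25.2 in the NCAC hearts (log2 difference -2.36 ± 0.51, adjusted p = 0.00279). Ligand and receptor were thus both lower in CAC hearts, Apln in each heart and Aplnr in all but replicate 3.

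Kcnip2, the accessory subunit of the fast transient outward potassium channel in mouse ventricle, had 11.7, 19.5 and 55.6 rescaled TPM in the lowest, median and highest CAC hearts, against 95.7, 122, 77.1, 121 and 100.8 in the NCAC hearts (log2 difference -2.13 ± 0.28, adjusted p = 0.000152). Each CAC heart was below each NCAC heart. Avp, the hormone vasopressin, averaged 2.25 ± 1.38 rescaled TPM in CAC hearts against 14.6 ± 4.20 in NCAC hearts (log2 difference -2.31 ± 0.28, adjusted p = 7.39e-05). Retnla, a resistin-like protein made by alternatively activated macrophages, averaged 3.10 ± 4.55 rescaled TPM in CAC hearts against 12.3 ± 2.87 in NCAC hearts (log2 difference -2.14 ± 0.45, adjusted p = 0.00253). Plekhh1, Klhdc8a and Bex1 were also among the leading falls, with log2 differences of -2.29, -1.89 and -1.88.

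In absolute amount the largest gains were Ankrd1, Mt1, Serpina3n, Mt2, Clu and the long non-coding RNA Neat1. Ankrd1, a stretch-responsive protein of the titin filament, had 2786, 5885 and 9499 rescaled TPM in the lowest, median and highest CAC hearts, against 563, 2429, 1502, 1438 and 1181 in the NCAC hearts (log2 difference 2.23 ± 0.34, adjusted p = 0.00039). That placed all CAC hearts above all NCAC hearts for one of the most abundant nuclear transcripts of the CAC heart. Mt1 averaged 2257 ± 978 rescaled TPM in CAC hearts against 243 ± 65.9 in NCAC hearts, Clu, the chaperone clusterin, averaged 1319 ± 413 rescaled TPM in CAC hearts against 149 ± 19.1 in NCAC hearts, and Neat1 averaged 1567 ± 495 rescaled TPM in CAC hearts against 589 ± 152 in NCAC hearts. The largest losses were the mitochondrially encoded mt-Co1, mt-Co2, mt-Co3, mt-Nd1, mt-Atp6 and mt-Atp8, of which mt-Co1, a subunit of cytochrome oxidase, averaged 102426 ± 11616 rescaled TPM in CAC hearts against 131244 ± 8201 in NCAC hearts (log2 difference -0.36 ± 0.10, adjusted p = 0.0145; with deposited TPM adjusted p = 0.0684).

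The interleukin-6, STAT3 and acute-phase list had 23 of 25 tested members called higher and 1 called lower, with a median log2 difference of 1.89, against a median of 0.01 over all genes tested. Osmr, the receptor for oncostatin M, had 8.04, 22.02 and 23.3 rescaled TPM in the lowest, median and highest CAC hearts, against 2.68, 2.39, 2.76, 2.51 and 2.49 in the NCAC hearts (log2 difference 2.50 ± 0.21, adjusted p = 1.37e-05). The groups did not overlap. Stat3 itself averaged 63.6 ± 10.7 rescaled TPM in CAC hearts against 30.7 ± 3.10 in NCAC hearts (log2 difference 1.01 ± 0.13, adjusted p = 9.85e-05). Il6ra, the interleukin-6 receptor, averaged 2.69 ± 0.804 rescaled TPM in CAC hearts against 1.08 ± 0.0699 in NCAC hearts (log2 difference 0.79 ± 0.14, adjusted p = 0.000846). Cebpd, a transcription factor of the acute phase, averaged 44.3 ± 12.6 rescaled TPM in CAC hearts against 10.2 ± 3.14 in NCAC hearts (log2 difference 2.01 ± 0.27, adjusted p = 0.000153). Hp, haptoglobin, averaged 27.9 ± 19.8 rescaled TPM in CAC hearts against 1.11 ± 0.393 in NCAC hearts (log2 difference 3.39 ± 0.54, adjusted p = 0.000451). The member called lower was Jak1, at 32.7 ± 1.62 rescaled TPM in CAC hearts against 40.4 ± 3.41 in NCAC hearts (log2 difference -0.29 ± 0.06, adjusted p = 0.0021), a call that was not made with TPM as deposited (adjusted p = 0.785). The summed level of the list was 2600.0 to 4284 rescaled TPM in 6 CAC hearts, 409.8 in CAC replicate 3 and 245 to 277 in NCAC hearts.

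Complement genes, which encode a cascade of plasma and tissue proteins that tags particles for uptake, had 17 of 21 tested members called higher and 0 called lower, with a median log2 difference of 1.58. C3, the central component, had 94.3, 255 and 338 rescaled TPM in the lowest, median and highest CAC hearts, against 44.002, 35.3, 22.9, 34.5 and 44.1 in the NCAC hearts (log2 difference 2.64 ± 0.28, adjusted p = 4.24e-05). The CAC hearts were all above the NCAC hearts. C1qa, part of the recognition molecule of the classical pathway and made largely by macrophages, averaged 173 ± 32.2 rescaled TPM in CAC hearts against 49.7 ± 11.2 in NCAC hearts (log2 difference 1.78 ± 0.17, adjusted p = 2.25e-05). Serping1, an inhibitor of the first steps of the cascade, averaged 179 ± 36.4 rescaled TPM in CAC hearts against 58.4 ± 9.40 in NCAC hearts (log2 difference 1.58 ± 0.15, adjusted p = 2.66e-05).

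Macrophage and monocyte markers moved in the same direction, with 16 of 18 tested members called higher and 0 called lower, with a median log2 difference of 1.30. Cd163 and Mrc1, scavenger receptors of resident macrophages, averaged 23.2 ± 6.71 rescaled TPM in CAC hearts against 3.34 ± 0.675 in NCAC hearts for Cd163 (log2 difference 2.42 ± 0.24, adjusted p = 2.62e-05) and 31.9 ± 7.91 rescaled TPM in CAC hearts against 6.43 ± 1.14 in NCAC hearts for Mrc1 (log2 difference 2.12 ± 0.20, adjusted p = 2.14e-05). Csf1r, the receptor for the macrophage growth factor, had 20.0, 23.8 and 25.4 rescaled TPM in the lowest, median and highest CAC hearts, against 9.20, 10.04, 7.81, 9.20 and 12.2 in the NCAC hearts (log2 difference 1.199 ± 0.09, adjusted p = 1.07e-05). Not a single CAC heart reached down into the NCAC range. Ccr2, a marker of recruited monocytes, had 1.42 ± 0.737 rescaled TPM in CAC hearts against 0.674 ± 0.240 in NCAC hearts and was not called (adjusted p = 0.0569). The summed level of all markers in the list was 601 to 979 rescaled TPM in CAC and 216 to 358 in NCAC hearts, and its part in the complement and chemokine values was not tested. In whole hearts more cells of a type and more RNA per cell cannot be told apart, and the same holds for fewer cells and less RNA.

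Lymphocyte transcripts were scarce, and the calls among them ran the other way. Of 5 tested markers of B and plasma cells 4 were called lower and none higher, while 1 was lower without NCAC replicate 1, 2 or 5 and 2 without NCAC replicate 3 or 4. Cd79a, part of the B cell receptor, had 0.121, 0.454 and 0.660 rescaled TPM in the lowest, median and highest CAC hearts, against 1.98, 1.25, 1.497, 1.19 and 1.27 in the NCAC hearts (log2 difference -0.80 ± 0.10, adjusted p = 0.000147). Igkc, the kappa light chain, averaged 2.58 ± 1.11 rescaled TPM in CAC hearts against 7.26 ± 1.83 in NCAC hearts (log2 difference -1.24 ± 0.21, adjusted p = 0.000774). Ighd averaged 0.576 ± 0.215 rescaled TPM in CAC hearts against 1.60 ± 0.306 in NCAC hearts (log2 difference -0.73 ± 0.11, adjusted p = 0.000296). Ighm was the remaining call (log2 difference -0.69 ± 0.23, adjusted p = 0.0306), lost in 8 of 12 refits with 1 library left out (all but those without CAC replicate 3, 5 or 6 or NCAC replicate 4) and with TPM as deposited (adjusted p = 0.0605). The only T and NK cell marker above the filter, Gzma, a granule protease, had 0.199, 0.301 and 0.653 rescaled TPM in the lowest, median and highest CAC hearts, against 1.32, 2.25, 2.89, 2.25 and 1.46 in the NCAC hearts (log2 difference -1.13 ± 0.13, adjusted p = 6.49e-05). Cd79a and Gzma were below the NCAC range in every CAC heart. Both passed the filter of at least 1 rescaled TPM in 5 libraries only through the 5 NCAC hearts, where they are high. Ighd, with a CAC mean below 1, likewise needed the NCAC hearts to pass. The lower CAC values of Cd79a, Gzma and Ighd are therefore in part what the filter selected. With any NCAC heart left out Cd79a no longer passed, so the B cell counts without single NCAC hearts fell in part for that reason. Of 4 neutrophil markers, Retnlg (log2 difference 1.11 ± 0.22, adjusted p = 0.00153) and Csf3r (log2 difference 0.72 ± 0.14, adjusted p = 0.00117) were called higher, whereas S100a8 (0.39, adjusted p = 0.276) and S100a9 (0.64, adjusted p = 0.102) were not called. With TPM as deposited both were called higher, at 0.61 for S100a8 (adjusted p = 0.044) and 0.89 for S100a9 (adjusted p = 0.0147), and so were 5 of 5 neutrophil markers tested on that scale.

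Among chemokines, 8 of 15 tested members were called higher and 1 lower, with a median log2 difference of 0.83. Ccl6 averaged 77.2 ± 28.3 rescaled TPM in CAC hearts against 8.58 ± 0.669 in NCAC hearts (log2 difference 2.88 ± 0.33, adjusted p = 6.42e-05). Ccl9 averaged 22.8 ± 7.61 rescaled TPM in CAC hearts against 3.41 ± 0.590 in NCAC hearts (log2 difference 2.34 ± 0.28, adjusted p = 7.06e-05). The monocyte attractant Ccl12 averaged 22.8 ± 8.03 rescaled TPM in CAC hearts against 4.64 ± 1.89 in NCAC hearts (log2 difference 2.05 ± 0.29, adjusted p = 0.000246). Ccl2 and Ccl7, which like Ccl12 are ligands of the receptor encoded by Ccr2, were not called, with log2 differences of -0.12 (adjusted p = 0.801) and 0.74 (adjusted p = 0.236). Ccl24, an attractant of eosinophils, was called lower (log2 difference -0.57 ± 0.15, adjusted p = 0.0107).

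Targets of NF-kappaB had 5 of 17 tested members called higher and 2 called lower, against 21.5% and 20.0% of all genes. Their median log2 difference was 0.23, and with TPM as deposited 8 were higher and 1 lower. Icam1, an adhesion molecule, averaged 15.9 ± 3.47 rescaled TPM in CAC hearts against 8.23 ± 1.07 in NCAC hearts (log2 difference 0.86 ± 0.13, adjusted p = 0.000358). Birc3, an inhibitor of apoptosis, averaged 4.80 ± 0.932 rescaled TPM in CAC hearts against 2.81 ± 0.172 in NCAC hearts (log2 difference 0.59 ± 0.10, adjusted p = 0.000815). Nfkbiz, Il1b and Bcl3, a nuclear IkappaB protein that is also in the acute-phase list (log2 difference 1.88 ± 0.20, adjusted p = 4.26e-05), were the other calls above. Sod2, the mitochondrial superoxide dismutase, averaged 173 ± 43.6 rescaled TPM in CAC hearts against 298 ± 12.7 in NCAC hearts (log2 difference -0.81 ± 0.14, adjusted p = 0.000634). Tnfaip2 averaged 13.2 ± 2.35 rescaled TPM in CAC hearts against 18.9 ± 2.98 in NCAC hearts (log2 difference -0.49 ± 0.12, adjusted p = 0.00598), also lower but not called with deposited TPM (adjusted p = 0.0691). Nfkbia, the classical feedback inhibitor, was not called (0.40, adjusted p = 0.107).

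Interferon response genes had 9 of 36 tested members called higher and 2 called lower, with a median log2 difference of 0.15, a share of higher calls near the 21.5% of all genes. Without CAC replicate 3 there were 9 higher and 6 lower, with TPM as deposited 17 higher and 2 lower, and 5 higher in the fit on 62 libraries and with the replicate block. Ifi27l2a averaged 197 ± 76.6 rescaled TPM in CAC hearts against 44.1 ± 25.8 in NCAC hearts (log2 difference 2.21 ± 0.34, adjusted p = 0.000358). Oas2, a sensor of double-stranded RNA, averaged 9.19 ± 2.41 rescaled TPM in CAC hearts against 3.08 ± 2.27 in NCAC hearts (log2 difference 1.42 ± 0.27, adjusted p = 0.00118). The transcription factors of the pathway, Irf9 (log2 difference 0.73 ± 0.12, adjusted p = 0.000645) and Stat2 (log2 difference 0.69 ± 0.10, adjusted p = 0.00035), were higher. The members called lower were the guanylate-binding proteins Gbp3 (log2 difference -0.79 ± 0.23, adjusted p = 0.0147) and Gbp4 (log2 difference -0.58 ± 0.16, adjusted p = 0.0103), whose reads can be shared with similar copies. Of 18 antigen presentation genes, Ctss, the lysosomal protease cathepsin S, averaged 53.3 ± 15.6 rescaled TPM in CAC hearts against 12.1 ± 1.83 in NCAC hearts (log2 difference 2.001 ± 0.20, adjusted p = 2.62e-05), and H2-T23 and Nlrc5 were the other calls, all higher. Calls above numbered 8 with TPM as deposited and 6 without NCAC replicate 5. The classical class I gene H2-K1 was not called (0.46, adjusted p = 0.0592).

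Genes that glucocorticoids induce were listed together with Nr3c1, the glucocorticoid receptor. Of 25 tested members 16 were called higher and 3 lower, with a median log2 difference of 1.01. Fkbp5, a co-chaperone of the glucocorticoid receptor, had 5.52, 34.9 and 51.9 rescaled TPM in the lowest, median and highest CAC hearts, against 4.41, 3.89, 8.47, 3.99 and 2.81 in the NCAC hearts (log2 difference 2.39 ± 0.45, adjusted p = 0.00115). All CAC hearts except replicate 3 were above the NCAC hearts, and Con hearts averaged 4.32 ± 1.85. Hsd11b1, which regenerates active glucocorticoid inside cells, averaged 19.2 ± 6.97 rescaled TPM in CAC hearts against 3.25 ± 0.738 in NCAC hearts (log2 difference 2.16 ± 0.27, adjusted p = 0.000109). Tsc22d3, a direct target known as GILZ, averaged 52.2 ± 10.1 rescaled TPM in CAC hearts against 32.8 ± 9.66 in NCAC hearts (log2 difference 0.69 ± 0.20, adjusted p = 0.0159). Per1 was not called (0.67, adjusted p = 0.116). The members called lower were Pdk4 and Angptl4, which are also targets of PPAR receptors, and Nr3c1, listed as the receptor and not as an induced gene. Pdk4, which blocks glucose oxidation in favour of fat, had 53.2, 84.0 and 125 rescaled TPM in the lowest, median and highest CAC hearts, against 175, 197, 321, 188 and 186 in the NCAC hearts (log2 difference -1.27 ± 0.20, adjusted p = 0.00043). No CAC heart reached the NCAC range. Nr3c1 averaged 17.0 ± 3.46 rescaled TPM in CAC hearts against 23.5 ± 3.02 in NCAC hearts (log2 difference -0.46 ± 0.12, adjusted p = 0.0105; with deposited TPM adjusted p = 0.175). Angptl4, an inhibitor of lipoprotein lipase, averaged 1.03 ± 0.631 rescaled TPM in CAC hearts against 2.75 ± 1.37 in NCAC hearts (log2 difference -0.85 ± 0.26, adjusted p = 0.019), a call that was lost without NCAC replicate 2, 4 or 5.

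Metal handling genes had 10 of 18 tested members called higher and 1 called lower, with a median log2 difference of 0.39. Hamp, the iron hormone hepcidin, averaged 7.56 ± 6.37 rescaled TPM in CAC hearts against 0.400 ± 0.247 in NCAC hearts (log2 difference 2.22 ± 0.53, adjusted p = 0.005; in the voom fit adjusted p = 0.0578). Trf, transferrin, averaged 24.7 ± 8.47 rescaled TPM in CAC hearts against 6.23 ± 1.16 in NCAC hearts (log2 difference 1.76 ± 0.24, adjusted p = 0.000191). Slc39a14, an importer of zinc and iron that interleukin-6 induces in liver, averaged 29.9 ± 6.76 rescaled TPM in CAC hearts against 13.2 ± 1.14 in NCAC hearts (log2 difference 1.09 ± 0.16, adjusted p = 0.000238). Hmox1, which degrades haem, had 7.73, 36.7 and 84.6 rescaled TPM in the lowest, median and highest CAC hearts, against 9.99, 6.19, 6.83, 5.25 and 7.36 in the NCAC hearts (log2 difference 2.10 ± 0.47, adjusted p = 0.00344). All but replicate 3 of the CAC hearts were higher than any NCAC heart. The member called lower was Tfrc, the transferrin receptor, at 17.7 ± 23.6 rescaled TPM in CAC hearts against 32.9 ± 7.86 in NCAC hearts (log2 difference -1.47 ± 0.54, adjusted p = 0.0431), a call lost in 10 of 12 refits that each left out 1 library (all but those without CAC replicate 3 or CAC replicate 7), with a highest adjusted p of 0.0866. CAC replicate 3 was above the NCAC mean for Tfrc, opposite to the mean of the other CAC hearts. Without it Tfrc was called lower by at least 1.

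Immediate early genes, transcription factors switched on within minutes of a stimulus, had 11 of 18 tested members called higher and 0 called lower, with a median log2 difference of 1.07. Junb averaged 73.2 ± 32.9 rescaled TPM in CAC hearts against 12.7 ± 2.83 in NCAC hearts (log2 difference 2.32 ± 0.32, adjusted p = 0.000184). Myc averaged 7.53 ± 2.70 rescaled TPM in CAC hearts against 1.13 ± 0.196 in NCAC hearts (log2 difference 1.93 ± 0.22, adjusted p = 6.06e-05). The growth inhibitor Btg2 averaged 102 ± 59.9 rescaled TPM in CAC hearts against 18.4 ± 4.38 in NCAC hearts (log2 difference 2.17 ± 0.42, adjusted p = 0.00147). Fos had 2.64, 12.9 and 15.3 rescaled TPM in the lowest, median and highest CAC hearts, against 2.15, 0.634, 0.582, 1.0002 and 1.93 in the NCAC hearts (log2 difference 1.97 ± 0.43, adjusted p = 0.0031). Its CAC values spread widely but stayed above the NCAC values. ATF4 and endoplasmic reticulum stress genes had 11 of 30 tested members called higher and 0 called lower, with a median log2 difference of 0.23, against 21 higher and 0 lower with TPM as deposited and 11 higher and 2 lower without CAC replicate 3. Slc3a2, the heavy chain of amino acid transporters, averaged 44.3 ± 10.96 rescaled TPM in CAC hearts against 16.2 ± 3.62 in NCAC hearts (log2 difference 1.36 ± 0.21, adjusted p = 0.000358). Asns, asparagine synthetase, averaged 2.33 ± 0.530 rescaled TPM in CAC hearts against 1.09 ± 0.217 in NCAC hearts (log2 difference 0.66 ± 0.12, adjusted p = 0.000847). Gdf15, a circulating stress signal that curbs appetite, averaged 2.81 ± 1.27 rescaled TPM in CAC hearts against 0.663 ± 0.255 in NCAC hearts (log2 difference 1.13 ± 0.24, adjusted p = 0.00244). Ddit3, which encodes CHOP, was not called (-0.03, adjusted p = 0.866).

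Genes of the adult contractile apparatus were lower as a group, with 1 of 25 tested members called higher and 15 called lower, with a median log2 difference of -0.49. Myh6, the fast myosin heavy chain of the adult mouse heart (chr14:54941921-54966927, minus strand), had 2958, 4075 and 6208 rescaled TPM in the lowest, median and highest CAC hearts, against 6911, 7256, 8158, 7886 and 6749 in the NCAC hearts (log2 difference -0.86 ± 0.15, adjusted p = 0.000948). The CAC hearts all lay below the NCAC hearts, and Con hearts averaged 7226 ± 661. Actc1, cardiac alpha-actin, had 1552, 3082 and 8897 rescaled TPM in the lowest, median and highest CAC hearts, against 12113, 5669.9, 11201, 5716 and 10264 in the NCAC hearts (log2 difference -1.36 ± 0.39, adjusted p = 0.0135). Only replicate 3 among the CAC hearts reached the NCAC range. Myl2, the ventricular regulatory light chain, averaged 3531 ± 917 rescaled TPM in CAC hearts against 5959.8 ± 835 in NCAC hearts (log2 difference -0.78 ± 0.16, adjusted p = 0.00222). Tnni3, cardiac troponin I, averaged 2283 ± 279.8 rescaled TPM in CAC hearts against 3409.9 ± 369 in NCAC hearts (log2 difference -0.58 ± 0.10, adjusted p = 0.000587). Mybpc3, cardiac myosin-binding protein C, averaged 1007 ± 308 rescaled TPM in CAC hearts against 1711 ± 126 in NCAC hearts (log2 difference -0.81 ± 0.16, adjusted p = 0.00154). Titin (Ttn) differed by -0.43 (adjusted p = 0.00265), which was not called with deposited TPM (adjusted p = 0.164). With TPM as deposited 12 members were still called lower and 3 higher, with a median of -0.22 against 0.24 over all genes.

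Some sarcomere members did not follow. Troponin T (Tnnt2) averaged 4012 ± 207 rescaled TPM in CAC hearts against 3495 ± 859 in NCAC hearts and was not called (adjusted p = 0.153). Myh7, the slow myosin heavy chain that mouse hearts regain under overload, averaged 476 ± 103 rescaled TPM in CAC hearts against 418 ± 46.03 in NCAC hearts and was not called either (adjusted p = 0.374), although both were called higher with TPM as deposited. Pdlim5, a Z-disc adaptor, was the member called higher (log2 difference 0.33 ± 0.12, adjusted p = 0.0457), and the call was lost in 9 of 12 refits with 1 library left out (all but those without CAC replicate 3, CAC replicate 4 or NCAC replicate 3). The share of all deposited TPM taken by the sarcomere list was 3.44 ± 0.360% in CAC and 4.37 ± 0.289% in NCAC hearts (SD, n = 7 and 5; two-sided exact permutation test p = 0.005051, adjusted over 4 shares 0.0101), a difference of -0.93 percentage points. With mitochondrially encoded genes taken out of the total it was -2.98 percentage points, in the same direction. Cardiomyocyte markers as a list had 0 of 12 tested members called higher and 10 called lower, with a median log2 difference of -0.62, and summed to 27705 to 49005 rescaled TPM in CAC and 49178 to 61593 in NCAC hearts. They share members with the sarcomere list, and the part that fewer or smaller myocytes had in the muscle results was not tested.

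Of the skeletal and fetal isoforms of sarcomere genes 13 of 27 passed the expression filter, with 1 called higher and 8 called lower. Besides Acta1, Casq1 and Mylk4, the slow skeletal troponin T Tnnt1 averaged 3.88 ± 1.08 rescaled TPM in CAC hearts against 10.3 ± 0.318 in NCAC hearts (log2 difference -1.24 ± 0.12, adjusted p = 2.74e-05). Myh7b averaged 15.5 ± 8.34 rescaled TPM in CAC hearts against 43.8 ± 5.66 in NCAC hearts (log2 difference -1.54 ± 0.23, adjusted p = 0.000292). Mybpc2, the fast skeletal form of myosin-binding protein C, went the other way and had 24.2, 67.9 and 103 rescaled TPM in the lowest, median and highest CAC hearts, against 10.7, 16.6, 13.3, 10.9 and 10.8 in the NCAC hearts (log2 difference 2.28 ± 0.27, adjusted p = 7.39e-05). Each CAC heart was above each NCAC heart for this gene. Rpl3l, the muscle form of ribosomal protein L3, averaged 180.3 ± 36.98 rescaled TPM in CAC hearts against 299 ± 22.7 in NCAC hearts (log2 difference -0.75 ± 0.12, adjusted p = 0.00057). Its ubiquitous counterpart Rpl3 averaged 85.0 ± 16.5 rescaled TPM in CAC hearts against 50.4 ± 5.76 in NCAC hearts (log2 difference 0.73 ± 0.13, adjusted p = 0.000776), and this opposite pair kept both directions with TPM as deposited (-0.48 for Rpl3l and 0.99 for Rpl3).

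Cardiac stress and stretch genes had 7 of 22 tested members called higher and 6 called lower, with a median log2 difference of 0.08, and with TPM as deposited 9 higher and 3 lower. Nppb, the B-type natriuretic peptide, had 283, 484 and 704 rescaled TPM in the lowest, median and highest CAC hearts, against 175, 428, 268, 123 and 223 in the NCAC hearts (log2 difference 1.07 ± 0.29, adjusted p = 0.0113). CAC replicates 3, 4 and 6 lay within the NCAC range. Nppa, the atrial peptide, averaged 865 ± 418 rescaled TPM in CAC hearts against 372 ± 254 in NCAC hearts and was not called (1.40, adjusted p = 0.206). Actn1, non-muscle alpha-actinin, was higher (log2 difference 0.93 ± 0.11, adjusted p = 6.06e-05). Fhl2, a LIM protein of the sarcomere, averaged 678 ± 289.5 rescaled TPM in CAC hearts against 1644 ± 262 in NCAC hearts (log2 difference -1.36 ± 0.24, adjusted p = 0.000797). Among genes of the fetal programme that accompanies hypertrophy, Nppb was thus called higher, Myh7 and Nppa were not called, and Acta1 was called lower.

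**Figure D3:**
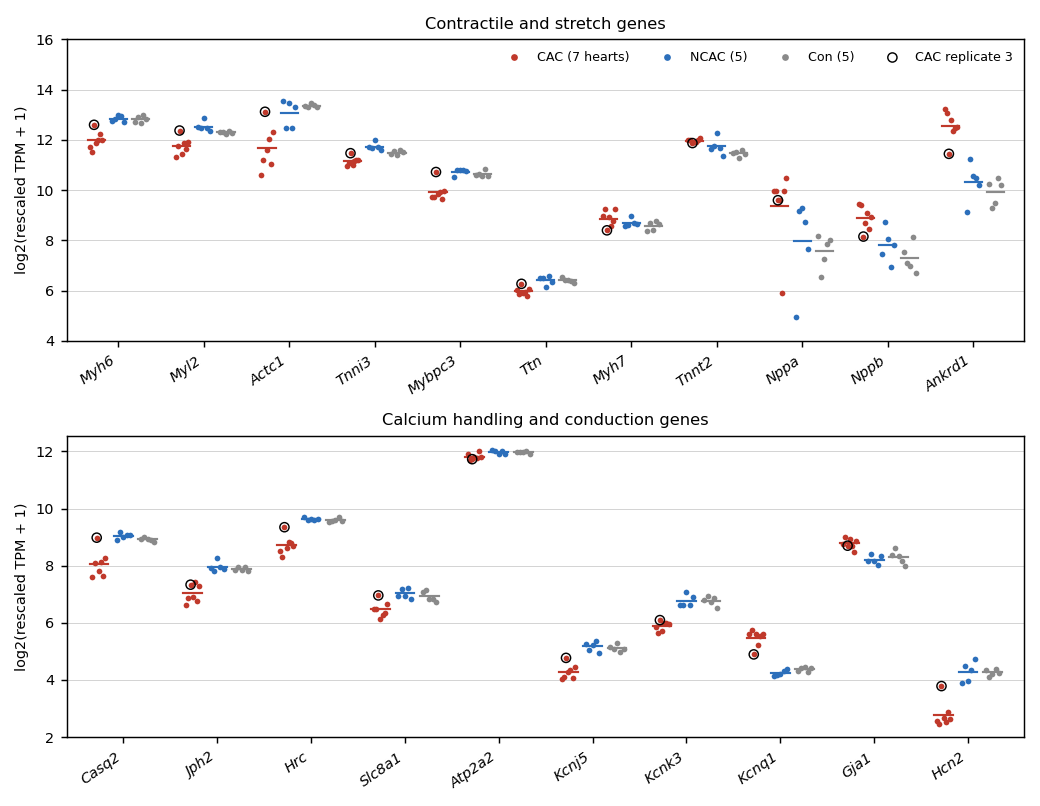
Log2(rescaled TPM + 1) of contractile, calcium and ion channel genes in each CAC heart (left), NCAC heart (middle) and Con heart (right), 1 point per heart with a bar for the mean of each group. Myh6, Casq2 and Hcn2 sit lower in CAC than in NCAC hearts, and Kcnq1 and Gja1 sit higher.

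Calcium handling genes had 2 of 29 tested members called higher and 13 called lower, with a median log2 difference of -0.16, and this lean to lower values turned with TPM as deposited, where 8 were called higher and 8 lower. Casq2, the cardiac calsequestrin that stores calcium, had 193, 272 and 505 rescaled TPM in the lowest, median and highest CAC hearts, against 479.7, 575, 519, 544 and 537 in the NCAC hearts (log2 difference -0.98 ± 0.20, adjusted p = 0.00179). Replicate 3 was the CAC heart within the NCAC range. Jph2, which holds the calcium release unit to the surface membrane, averaged 132 ± 29.4 rescaled TPM in CAC hearts against 251 ± 33.2 in NCAC hearts (log2 difference -0.94 ± 0.14, adjusted p = 0.00038). Hrc, a calcium-binding protein of the same store, averaged 432 ± 108 rescaled TPM in CAC hearts against 796 ± 25.1 in NCAC hearts (log2 difference -0.92 ± 0.14, adjusted p = 0.000351). The sodium-calcium exchanger Slc8a1 averaged 89.6 ± 18.2 rescaled TPM in CAC hearts against 130.3 ± 15.6 in NCAC hearts (log2 difference -0.55 ± 0.13, adjusted p = 0.00457). The calcium pump Atp2a2 was not called (-0.16, adjusted p = 0.0848), nor were the release channel Ryr2 (-0.16, adjusted p = 0.271) and the L-type channel Cacna1c (0.06, adjusted p = 0.538). The members called higher were Atp2b4, a calcium pump of the surface membrane (log2 difference 0.37 ± 0.10, adjusted p = 0.0077), and Fkbp1b, which stabilises the release channel (log2 difference 0.36 ± 0.10, adjusted p = 0.0154).

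Potassium channel genes had 3 of 19 tested members called higher and 8 called lower, with a median log2 difference of -0.21, and with TPM as deposited 4 were called higher and 6 lower. Beside Kcnip2, the subunits of the acetylcholine-activated and ATP-sensitive channels Kcnj5 (log2 difference -0.88 ± 0.12, adjusted p = 0.000213) and Kcnj11 (log2 difference -0.72 ± 0.10, adjusted p = 0.00018) and the background channel Kcnk3 (log2 difference -0.88 ± 0.10, adjusted p = 5.93e-05) were lower. The pore subunits that Kcnip2 serves were not called, with -0.21 for Kcnd2 (adjusted p = 0.315) and 0.01 for Kcnd3 (adjusted p = 0.911). Kcnq1, the pore of the slow delayed rectifier, had 28.7, 47.3 and 52.2 rescaled TPM in the lowest, median and highest CAC hearts, against 16.5, 16.9, 17.5, 19.1 and 19.8 in the NCAC hearts (log2 difference 1.22 ± 0.13, adjusted p = 4.13e-05). It was higher in all CAC hearts. Its modulator Kcne4 averaged 6.90 ± 2.11 rescaled TPM in CAC hearts against 1.64 ± 0.269 in NCAC hearts (log2 difference 1.54 ± 0.17, adjusted p = 5.98e-05), and Kcna5 was the remaining member called higher (log2 difference 0.55 ± 0.14, adjusted p = 0.00699).

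The pacemaker channel genes Hcn2 and Hcn4 were lower. Hcn2 had 4.55, 5.26 and 12.8 rescaled TPM in the lowest, median and highest CAC hearts, against 13.9, 21.4, 14.7, 19.2 and 25.5 in the NCAC hearts (log2 difference -1.50 ± 0.22, adjusted p = 0.000268). Hcn4, the main pacemaker channel of the sinus node, averaged 1.25 ± 0.532 rescaled TPM in CAC hearts against 3.78 ± 1.2005 in NCAC hearts (log2 difference -1.08 ± 0.18, adjusted p = 0.000645). The groups were apart for both genes, and the signs were the same with TPM as deposited (-1.26 for Hcn2 and -0.91 for Hcn4). Scn4a, the sodium channel of skeletal muscle, averaged 2.85 ± 1.80 rescaled TPM in CAC hearts against 12.2 ± 5.51 in NCAC hearts (log2 difference -1.81 ± 0.38, adjusted p = 0.00241). Scn10a, another sodium channel gene, averaged 0.805 ± 0.384 rescaled TPM in CAC hearts against 2.04 ± 0.218 in NCAC hearts (log2 difference -0.78 ± 0.14, adjusted p = 0.000953). Gja1, connexin 43, which joins ventricular myocytes, averaged 442 ± 53.2 rescaled TPM in CAC hearts against 298 ± 33.1 in NCAC hearts (log2 difference 0.57 ± 0.10, adjusted p = 0.000689). Of the 19 tested genes of sodium channels, pacemaker channels and connexins, more were called higher (8) than lower (4), with a median log2 difference of 0.12. With TPM as deposited 11 were higher and 4 lower. Of the members called higher only Gja1 is named here.

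Receptors and signalling genes of the adrenergic, angiotensin and endothelin systems had 5 of 26 tested members called higher and 9 called lower, with a median log2 difference of -0.21, a lean that turned to 9 higher and 5 lower with TPM as deposited. Adra1a, an alpha-adrenergic receptor, averaged 2.86 ± 0.792 rescaled TPM in CAC hearts against 4.995 ± 0.667 in NCAC hearts (log2 difference -0.65 ± 0.13, adjusted p = 0.00194). The beta-adrenergic receptor Adrb1 averaged 9.87 ± 1.70 rescaled TPM in CAC hearts against 13.1 ± 0.825 in NCAC hearts (log2 difference -0.39 ± 0.10, adjusted p = 0.00979), which was not called with deposited TPM (adjusted p = 0.25). Ace, which forms angiotensin II, had 20.6, 62.4 and 68.2 rescaled TPM in the lowest, median and highest CAC hearts, against 14.02, 12.6, 13.3, 15.2 and 15.8 in the NCAC hearts (log2 difference 1.83 ± 0.24, adjusted p = 0.000149). It was higher in each CAC heart. The endothelin receptors Ednra (log2 difference 0.76 ± 0.16, adjusted p = 0.00221) and Ednrb (log2 difference 1.01 ± 0.15, adjusted p = 0.000303) and the muscarinic receptor Chrm2 (log2 difference 0.57 ± 0.10, adjusted p = 0.000851) were higher too. Npr1, the receptor for natriuretic peptides, was the last member called higher (log2 difference 0.34 ± 0.12, adjusted p = 0.039), a call lost in 9 of 12 refits with 1 library left out (all but those without CAC replicate 1, CAC replicate 3 or NCAC replicate 3).

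Fatty acid oxidation genes and PPAR targets had 2 of 36 tested members called higher and 27 called lower, with a median log2 difference of -0.54, and with TPM as deposited 20 were called lower and 5 higher. Acadm, the dehydrogenase of medium-chain fatty acids, had 248, 274 and 432 rescaled TPM in the lowest, median and highest CAC hearts, against 527, 598, 585, 536 and 467 in the NCAC hearts (log2 difference -0.89 ± 0.12, adjusted p = 0.000203). All CAC hearts were below all NCAC hearts. Hadha, the alpha subunit of the trifunctional protein, averaged 245 ± 45.9 rescaled TPM in CAC hearts against 431 ± 32.8 in NCAC hearts (log2 difference -0.83 ± 0.12, adjusted p = 0.000199). Cpt1b, which admits fatty acids to mitochondria, averaged 289 ± 35.6 rescaled TPM in CAC hearts against 365 ± 19.5 in NCAC hearts (log2 difference -0.34 ± 0.08, adjusted p = 0.0058; with deposited TPM adjusted p = 0.353). Ucp3, an inner membrane carrier induced by fatty acids, averaged 7.45 ± 5.21 rescaled TPM in CAC hearts against 22.3 ± 6.10 in NCAC hearts (log2 difference -1.60 ± 0.32, adjusted p = 0.00177). The transcriptional regulators Ppara (log2 difference -0.39 ± 0.11, adjusted p = 0.0143) and Ppargc1a (log2 difference -0.38 ± 0.08, adjusted p = 0.00234) were lower, though neither was called with TPM as deposited (adjusted p = 0.279 for Ppara and 0.184 for Ppargc1a). The uptake genes Cd36 (0.20, adjusted p = 0.162) and Lpl (0.27, adjusted p = 0.0708) were not called, though both were called higher with deposited TPM and Lpl also without CAC replicate 3 (adjusted p = 0.0217). The members called higher were Ucp2 (log2 difference 1.05 ± 0.10, adjusted p = 2.62e-05) and Plin2, a coat protein of lipid droplets (log2 difference 0.93 ± 0.16, adjusted p = 0.000737).

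Glycolysis and glycogen genes had 6 of 33 tested members called higher and 13 called lower, with a median log2 difference of -0.22, and with TPM as deposited the counts were 10 higher and 7 lower. Without CAC replicate 3 they were 7 higher and 21 lower, and 3 higher without NCAC replicate 1, so that the lean of this list depends on the scaling and on single libraries. The insulin-responsive glucose transporter Slc2a4 averaged 161 ± 23.5 rescaled TPM in CAC hearts against 238 ± 20.3 in NCAC hearts (log2 difference -0.56 ± 0.10, adjusted p = 0.000846). Hk2, hexokinase 2, averaged 61.9 ± 13.3 rescaled TPM in CAC hearts against 111 ± 9.73 in NCAC hearts (log2 difference -0.85 ± 0.12, adjusted p = 0.000213), and Pfkm, muscle phosphofructokinase, differed by -0.55 (adjusted p = 0.000619). Ldha, which forms lactate, was higher at 552 ± 42.1 rescaled TPM in CAC hearts against 450.3 ± 39.2 in NCAC hearts (log2 difference 0.29 ± 0.07, adjusted p = 0.00666). Genes of the tricarboxylic acid cycle and of branched-chain amino acid breakdown had 0 of 28 tested members called higher and 27 called lower, with a median log2 difference of -0.53, and 19 stayed called lower with deposited TPM. Citrate synthase (Cs) averaged 575 ± 126 rescaled TPM in CAC hearts against 869 ± 49.2 in NCAC hearts (log2 difference -0.62 ± 0.12, adjusted p = 0.0016). Sucla2, of succinyl-CoA ligase, averaged 156 ± 32.9 rescaled TPM in CAC hearts against 267 ± 21.6 in NCAC hearts (log2 difference -0.80 ± 0.12, adjusted p = 0.000315). Oxct1, which lets the heart use ketone bodies, averaged 381 ± 113 rescaled TPM in CAC hearts against 671 ± 54.96 in NCAC hearts (log2 difference -0.85 ± 0.15, adjusted p = 0.00102). Pdhb, of the pyruvate dehydrogenase complex, differed by -0.87 (adjusted p = 0.000936).

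Nuclear genes of the respiratory chain had 0 of 49 tested members called higher and 46 called lower, with a median log2 difference of -0.38. The differences were small and so depended on the scaling: with TPM as deposited 16 were called lower and 1 higher, with a median of -0.11 against 0.24 over all genes. Cox7a1, the muscle form of a cytochrome oxidase subunit, had 639, 884 and 1383 rescaled TPM in the lowest, median and highest CAC hearts, against 1921, 2045, 1818, 2017 and 1673 in the NCAC hearts (log2 difference -1.11 ± 0.15, adjusted p = 0.000178). It was lower in every CAC heart. Uqcrfs1, the iron-sulphur subunit of complex III, averaged 564 ± 98.9 rescaled TPM in CAC hearts against 896 ± 59.7 in NCAC hearts (log2 difference -0.68 ± 0.11, adjusted p = 0.000426). Ndufs1, of complex I, averaged 234 ± 30.1 rescaled TPM in CAC hearts against 343 ± 25.7 in NCAC hearts (log2 difference -0.56 ± 0.09, adjusted p = 0.000502). Cox6a2 averaged 2854 ± 124 rescaled TPM in CAC hearts against 2870.1 ± 350.5 in NCAC hearts and was not called (adjusted p = 0.99).

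Genes of the mitochondrial genome had 0 of 13 tested members called higher and 11 called lower, with a median log2 difference of -0.41. With TPM as deposited 7 were called lower, with a median of -0.14 against 0.24 over all genes, and 4 were lower in the fit on 62 libraries and 0 with no filter. Its genes took 52.2 ± 1.92% of all deposited TPM in CAC and 57.2 ± 1.06% in NCAC hearts (SD, n = 7 and 5). The two-sided exact permutation test gave p = 0.002525, the smallest that 7 against 5 libraries can give, and 0.0101 adjusted over 4 shares. Shares of the haemoglobin genes were 0.669 ± 1.17% in CAC and 0.368 ± 0.190% in NCAC hearts (exact permutation p = 1.0), and the sign of that difference rests on CAC replicate 3, without which it was -0.135 percentage points. The haemoglobin difference was 0.30 percentage points of all TPM and 0.607 with mitochondrially encoded genes taken out of the total. Each of the 4 haemoglobin genes had a negative log2 difference that was not called, -0.99 for Hba-a1 with an adjusted p of 0.43 being one, and their near-identical copies share reads.

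The ubiquitin ligases best known from wasting skeletal muscle were not called. Fbxo32, which encodes atrogin-1, had 25.1, 50.8 and 85.7 rescaled TPM in the lowest, median and highest CAC hearts, against 54.6, 43.2, 48.8, 60.6 and 48.6 in the NCAC hearts (adjusted p = 0.767). Trim63, which encodes MuRF1, had 96.1, 141 and 277 rescaled TPM in the lowest, median and highest CAC hearts, against 147, 161, 157, 148 and 121 in the NCAC hearts (adjusted p = 0.84). The ranges of both groups overlapped for both genes. The whole list of atrophy ligases and FOXO genes had 6 of 24 tested members called higher and 4 called lower, with a median log2 difference of 0.01. These shares are near the 21.5% and 20.0% of all genes, and with TPM as deposited the counts were 11 higher and 2 lower. Members called higher included Fbxo31, a cell cycle F-box protein, at 86.4 ± 35.5 rescaled TPM in CAC hearts against 29.6 ± 3.56 in NCAC hearts (log2 difference 1.39 ± 0.29, adjusted p = 0.00235), Gadd45g (log2 difference 1.16 ± 0.18, adjusted p = 0.000368) and Eif4ebp1, a brake on translation (log2 difference 0.73 ± 0.14, adjusted p = 0.00132). Asb2, a muscle ubiquitin ligase component, averaged 117 ± 40.8 rescaled TPM in CAC hearts against 255 ± 22.1 in NCAC hearts (log2 difference -1.19 ± 0.21, adjusted p = 0.000851).

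Proteasome subunits had 0 of 34 tested members called higher and 6 called lower, with a median log2 difference of -0.04, against 3 higher and 5 lower without CAC replicate 3. However, with TPM as deposited 20 were called higher and 0 lower, and without mitochondrial and haemoglobin genes 8 higher and 3 lower, so their direction cannot be told from the scaling. Autophagy and lysosome genes had 13 of 28 tested members called higher and 4 called lower, with a median log2 difference of 0.18, and with TPM as deposited 19 higher and 1 lower. The lysosomal membrane protein Lamp2 averaged 55.8 ± 6.25 rescaled TPM in CAC hearts against 34.5 ± 1.76 in NCAC hearts (log2 difference 0.67 ± 0.08, adjusted p = 8.44e-05), and the proteases Ctsz (log2 difference 0.90 ± 0.10, adjusted p = 5.93e-05) and Ctsb (log2 difference 0.55 ± 0.07, adjusted p = 0.000179) were higher. Pink1, a kinase that marks damaged mitochondria for removal, averaged 292 ± 32.9 rescaled TPM in CAC hearts against 492 ± 32.8 in NCAC hearts (log2 difference -0.76 ± 0.08, adjusted p = 4.25e-05). Heat shock and chaperone genes had 1 of 21 tested members called higher and 6 called lower, with a median log2 difference of -0.19, which with TPM as deposited became 5 higher and 3 lower. Dnajb4 was the member called higher (log2 difference 0.80 ± 0.11, adjusted p = 0.000184), and Hspd1, the mitochondrial chaperonin, was lower (log2 difference -0.67 ± 0.11, adjusted p = 0.000647).

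Ribosomal protein genes had 13 of 44 tested members called higher and 1 called lower, with a median log2 difference of 0.17. With TPM as deposited there were 41 higher and 0 lower, and without mitochondrial and haemoglobin genes 36 higher and 0 lower. The count of higher calls also moved with single libraries. It was 24 without CAC replicate 3 and 25 without NCAC replicate 3, whereas it was 6 to 8 without CAC replicate 1, 2, 6 or 7 or NCAC replicate 1, 2 or 5. Rps2 was the member called lower (log2 difference -0.17 ± 0.06, adjusted p = 0.0379). The call was not made when CAC replicate 1 or 4 or NCAC replicate 1, 3 or 4 was left out, and its sign turned with TPM as deposited (0.10, adjusted p = 0.372). Ribosomal protein genes took 1.499 ± 0.220% of deposited TPM in CAC and 1.09 ± 0.0489% in NCAC hearts (SD, n = 7 and 5; two-sided exact permutation test p = 0.0101, adjusted over 4 shares 0.01347). Pseudogene copies of these genes may share reads. Among translation factors the pair of elongation factor 1-alpha genes moved apart. Eef1a1, the widely expressed form, had 643, 876 and 966 rescaled TPM in the lowest, median and highest CAC hearts, against 496, 483, 527, 483 and 518 in the NCAC hearts (log2 difference 0.75 ± 0.09, adjusted p = 7.43e-05). Eef1a2, the form of muscle and neurons, averaged 611 ± 53.04 rescaled TPM in CAC hearts against 795 ± 67.7 in NCAC hearts (log2 difference -0.38 ± 0.08, adjusted p = 0.00187), and this fall was not called with deposited TPM (adjusted p = 0.262).

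Fibrillar collagen genes were not called. Col1a1 had 11.5, 24.98 and 31.99 rescaled TPM in the lowest, median and highest CAC hearts, against 23.1, 29.5, 7.21, 19.8 and 37.6 in the NCAC hearts (adjusted p = 0.756), and Col3a1 averaged 50.8 ± 22.6 rescaled TPM in CAC hearts against 40.6 ± 22.2 in NCAC hearts (adjusted p = 0.526). The ranges overlapped for both. Of 37 matrix genes 5 were called higher and 3 lower, below the shares of 21.5% and 20.0% over all genes. There were 8 higher and 2 lower with TPM as deposited. Lower calls numbered 6 without CAC replicate 3 or NCAC replicate 3 and 1 without CAC replicate 1 or NCAC replicate 1 or 5. Dcn, the collagen-binding proteoglycan decorin, averaged 852 ± 154 rescaled TPM in CAC hearts against 448 ± 42.3 in NCAC hearts (log2 difference 0.91 ± 0.14, adjusted p = 0.000347). Eln, elastin, averaged 16.9 ± 4.89 rescaled TPM in CAC hearts against 6.66 ± 1.74 in NCAC hearts (log2 difference 1.18 ± 0.24, adjusted p = 0.00188). Lox, which cross-links collagen and elastin, averaged 4.34 ± 2.37 rescaled TPM in CAC hearts against 0.710 ± 0.340 in NCAC hearts (log2 difference 1.52 ± 0.31, adjusted p = 0.00211). Ogn, osteoglycin, was lower (log2 difference -0.69 ± 0.18, adjusted p = 0.00881). Matrix proteases and their inhibitors had 9 of 20 tested members called higher and 1 called lower, with a median log2 difference of 0.48, against 12 higher and 3 lower without CAC replicate 3 and 14 higher and 1 lower with TPM as deposited. Mmp3, stromelysin, had 5.98, 40.1 and 48.2 rescaled TPM in the lowest, median and highest CAC hearts, against 0.955, 1.87, 2.48, 0.890 and 1.29 in the NCAC hearts (log2 difference 3.73 ± 0.41, adjusted p = 5.27e-05). The CAC hearts were apart from the NCAC hearts. The inhibitor Timp1 averaged 12.4 ± 5.32 rescaled TPM in CAC hearts against 2.05 ± 0.866 in NCAC hearts (log2 difference 2.07 ± 0.31, adjusted p = 0.000343). Adamts15 averaged 11.99 ± 5.69 rescaled TPM in CAC hearts against 2.09 ± 0.453 in NCAC hearts (log2 difference 1.94 ± 0.31, adjusted p = 0.000456). Mmp15 averaged 17.8 ± 9.50 rescaled TPM in CAC hearts against 44.2 ± 9.59 in NCAC hearts (log2 difference -1.35 ± 0.26, adjusted p = 0.00129).

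Vessel genes had 8 of 33 tested members called higher and 6 called lower, with a median log2 difference of 0.08, shares near the 21.5% and 20.0% of all genes. Without CAC replicate 3 there were 13 higher and 8 lower, and with TPM as deposited 16 higher and 5 lower. The receptors of vascular endothelial growth factors moved apart. Kdr, the main signalling receptor, averaged 23.7 ± 8.26 rescaled TPM in CAC hearts against 39.9 ± 5.40 in NCAC hearts (log2 difference -0.77 ± 0.17, adjusted p = 0.00393). Flt1, which binds the ligand with little signal, averaged 32.1 ± 6.29 rescaled TPM in CAC hearts against 19.7 ± 2.69 in NCAC hearts (log2 difference 0.66 ± 0.14, adjusted p = 0.00218). Their opposite signs held with TPM as deposited (-0.51 for Kdr and 0.92 for Flt1). The ligand Vegfb averaged 129 ± 17.3 rescaled TPM in CAC hearts against 208 ± 13.2 in NCAC hearts (log2 difference -0.70 ± 0.09, adjusted p = 0.000109). Pgf, placental growth factor, which binds Flt1, averaged 15.9 ± 5.08 rescaled TPM in CAC hearts against 5.33 ± 0.227 in NCAC hearts (log2 difference 1.34 ± 0.22, adjusted p = 0.000522). Plvap, of endothelial fenestrae (log2 difference 1.48 ± 0.24, adjusted p = 0.000468), and Vwf, von Willebrand factor (log2 difference 0.95 ± 0.11, adjusted p = 6.95e-05), were higher. The general endothelial markers had 2 of 12 tested members called higher and 2 called lower, also near the shares of all genes. Their median log2 difference was -0.06, and with TPM as deposited 5 were higher and 1 lower.

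Among growth genes the insulin receptor substrate Irs1 had 1.97, 3.04 and 4.02 rescaled TPM in the lowest, median and highest CAC hearts, against 10.7, 7.97, 7.32, 7.95 and 8.79 in the NCAC hearts (log2 difference -1.26 ± 0.13, adjusted p = 3.81e-05). It was lower in all CAC hearts. Irs2 averaged 9.89 ± 6.61 rescaled TPM in CAC hearts against 3.85 ± 1.06 in NCAC hearts and was not called with CAC replicate 3 (adjusted p = 0.063), though it was without that library (1.24, adjusted p = 0.00273). The binding proteins Igfbp3 (log2 difference 1.23 ± 0.30, adjusted p = 0.00605) and Igfbp4 (log2 difference 1.14 ± 0.17, adjusted p = 0.00037) were higher. Of 17 cell cycle genes Mcm4 and Cdkn1a, the cyclin-dependent kinase inhibitor p21 (log2 difference 1.39 ± 0.40, adjusted p = 0.015), were called higher, and the cyclins Ccnd1 (log2 difference -1.30 ± 0.34, adjusted p = 0.00922) and Ccnd2 (log2 difference -0.61 ± 0.17, adjusted p = 0.0131; with deposited TPM adjusted p = 0.086) lower. In this list 8 were higher and 1 lower with TPM as deposited. In the imprinted growth network H19, a non-coding RNA, averaged 24.6 ± 17.1 rescaled TPM in CAC hearts against 4.66 ± 1.92 in NCAC hearts (log2 difference 1.997 ± 0.40, adjusted p = 0.00176). Cdkn1c averaged 6.13 ± 0.919 rescaled TPM in CAC hearts against 13.1 ± 1.59 in NCAC hearts (log2 difference -0.98 ± 0.10, adjusted p = 3.47e-05). The secreted Wnt antagonists Sfrp1 (log2 difference 1.12 ± 0.12, adjusted p = 4.25e-05) and Frzb (log2 difference 0.96 ± 0.15, adjusted p = 0.00036) were higher, and Wif1 was lower (log2 difference -1.08 ± 0.20, adjusted p = 0.000984). The clock repressor Nr1d1 was not called (-1.10, adjusted p = 0.119), and the labels give no hour of collection.

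**Figure D4:**
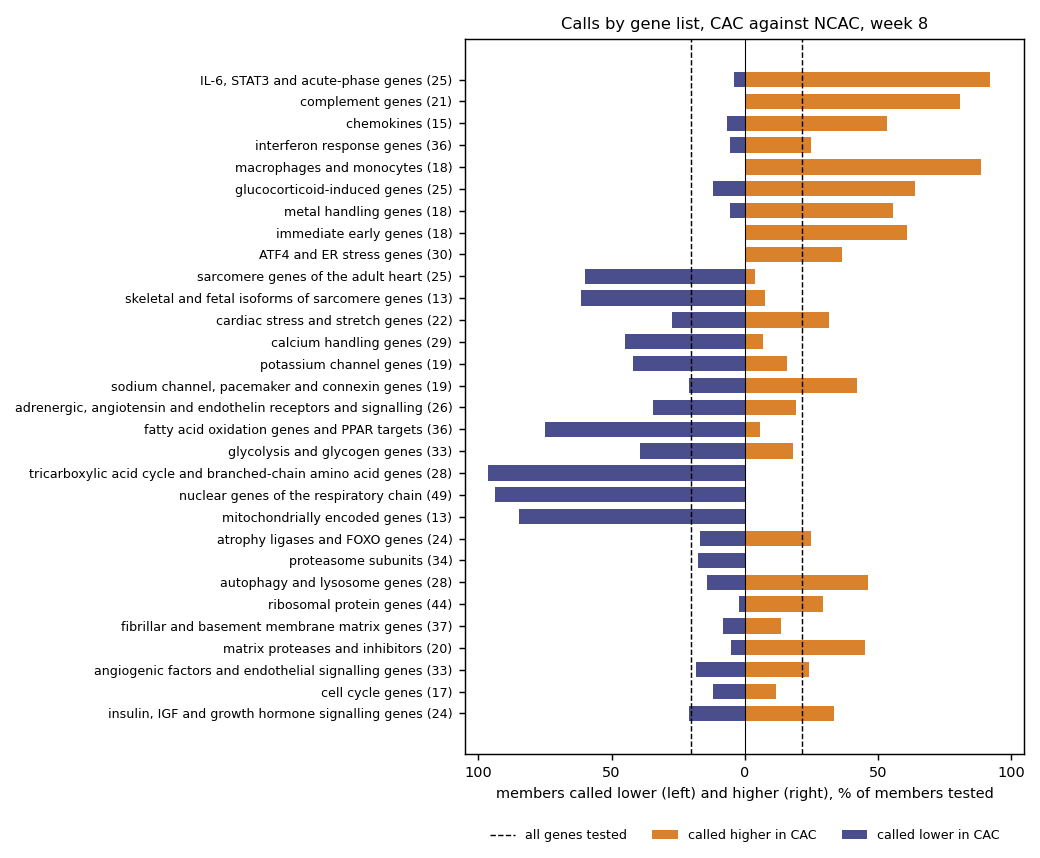
Percent of the tested members called higher (right of 0) and lower (left of 0) in CAC hearts for 30 gene lists, with rescaled values and the number tested in brackets. Dashed lines mark the shares over all genes, 21.5% higher and 20.0% lower. Acute-phase, complement and macrophage lists lie almost wholly on the right, and the tricarboxylic acid cycle, respiratory chain and mitochondrially encoded lists lie wholly on the left, although with TPM as deposited 1 respiratory chain genes were called higher.

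Of the melanoma markers Mlana, which encodes a melanosome protein, had 1.07, 4.66 and 7.60 rescaled TPM in the lowest, median and highest CAC hearts, against 0.298, 0.154, 0.489, 0.0755 and 0.152 in the NCAC hearts (log2 difference 1.97 ± 0.31, adjusted p = 0.00043). Every CAC heart was above every NCAC heart, and Con hearts averaged 0.189 ± 0.0909. Mlana passed the filter of at least 1 rescaled TPM in 5 libraries only through the CAC hearts. Its higher CAC values are therefore in part what the filter selected. Of 4 tested members of the list Mlana was the only 1 called higher, and 2 were called lower. Pmel averaged 0.169 ± 0.139 rescaled TPM in CAC hearts against 0.128 ± 0.0954 in NCAC hearts, and Tyrp1 averaged 0.00211 ± 0.00559 rescaled TPM in CAC hearts against 0.0895 ± 0.191 in NCAC hearts. Tyr was at or below 0.00588 rescaled TPM in CAC hearts and listed at 0 in all 5 NCAC hearts. Pmel, Tyrp1 and Tyr were below the expression filter and so were not tested. Dct was lower in CAC hearts (log2 difference -0.92 ± 0.30, adjusted p = 0.0248), a call lost without NCAC replicate 1 or 3. Whether the Mlana transcript came from tumour cells, from blood or from the heart itself was not tested.

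The week 8 differences were also placed beside the same contrast at earlier weeks, in 1 fit over 42 CAC and NCAC libraries and 12415 genes. The number of genes called was 52 (0.419%) at week 2, 1919 (15.5%) at week 4, 4877 (39.3%) at week 6 and 6292 (50.7%) at week 8. Serpina3n differed by 1.52, 5.15, 7.91 and 8.07 on the log2 scale at weeks 2, 4, 6 and 8, and was called from week 4 on. Kcnip2, with -0.47, -0.99, -1.86 and -2.13, and Apln, with -0.72, -2.10, -2.51 and -2.43, were likewise called from week 4 on. Fkbp5, with -0.73, 0.60, 1.79 and 2.39, and Acta1, with -0.76, -0.56, -2.15 and -3.14, were called at weeks 6 and 8 only. Myh6 differed by 0.03, -0.12, -0.04 and -0.86 and was called at week 8 alone.

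**Figure D5:**
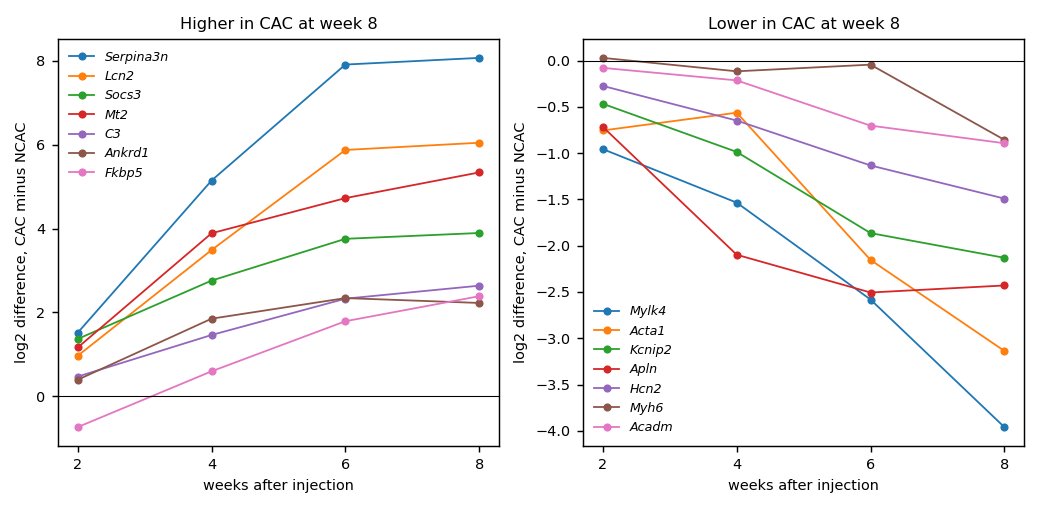
Log2 difference, CAC minus NCAC, at weeks 2, 4, 6 and 8 for named genes, 1 line per gene, from the 42-library fit. Serpina3n and Lcn2 are far above 0 from week 4, whereas Myh6 departs from 0 at week 8, with -0.86.

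The change from week 6 to week 8 was tested directly as the difference between both contrasts. It was called for 22 of 12415 genes (0.177%), 1 higher (0.00805%) and 21 lower (0.169%) at week 8. The named ones were all lower. Myh6 differed by -0.81 ± 0.17 (limma adjusted p = 0.0417), Jph2 by -0.67 ± 0.15 (adjusted p = 0.0484) and troponin C (Tnnc1) by -0.49 ± 0.10 (adjusted p = 0.0417). Alpha-actinin 2 (Actn2) differed by -0.48 (adjusted p = 0.0429) and Ndufab1, of complex I and fatty acid synthesis, by -0.47 (adjusted p = 0.0417). These calls were not stable to the fit, the filter or the choice of libraries. The fit on the 22 libraries of weeks 6 and 8 called 0 genes, and with no filter 1 was higher and 1 lower. Without CAC week 8 replicate 3 there were 533 (4.29%), 157 higher (1.27%) and 376 lower (3.03%). Calls numbered 156 without NCAC week 8 replicate 5 and 81 without NCAC week 6 replicate 5. None was left when any of CAC week 6 replicate 5, CAC week 8 replicates 1, 2 or 4, NCAC week 6 replicates 1, 2 or 3, or NCAC week 8 replicates 3 or 4 was left out. Other counts were 1 without CAC week 6 replicate 4, 2 without CAC week 8 replicate 6, 10 without CAC week 6 replicate 2, 13 without NCAC week 6 replicate 4, 35 without NCAC week 8 replicate 1 and 39 without CAC week 8 replicate 5.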

How the data were processed

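RNA of whole hearts was measured in 62 libraries, 12 of them used for the comparison at week 8. The authors deposited TPM for 47643 gene symbols, with genome build mm10 named per the submitters' processing notes, from a stranded mRNA kit per the labels' protocols. The aligner, the counting tool and the annotation are not given in the sources used here. TPM keeps no read count, but steps between low values gave depths, with 79.99 to 81.39% of values within 0.05 reads of a whole number, where chance gives 10%. The precision of low genes follows from depths of 45350000 to 49050000 reads. Coordinates came from GENCODE M21 by symbol (45134 matched), an assumed release. Promoters came from RefSeq on GRCm38.p6.

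TPM were rescaled by the median of ratios over 10772 genes with at least 1 TPM in each of the 12 libraries, with factors of 0.9076 to 1.1556 in CAC and 0.8005 to 0.9417 in NCAC hearts. Genes with at least 1 rescaled TPM in 5 libraries were fitted on log2(value + 1) with limma 3.58.1 (trend) in R 4.3.3. A gene below 1 in all hearts of 1 arm could pass only through the other arm. The direction of such a gene is in part what this filter selected. P-values were adjusted by Benjamini-Hochberg within each comparison. Groups and replicate numbers come from the labels, which call the libraries biological replicates. A fit over 42 libraries gave earlier weeks and the difference between weeks. Shares of deposited TPM were tested by exact permutation, adjusted over 4. The comparison, the 60 gene lists and the tests were chosen with earlier results of these data known, so counts within a list are descriptions.

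Named genes were the 12 largest rises and falls with a mean of at least 5 and at least 6 of 7 CAC libraries beyond all NCAC libraries, the 6 largest gains and losses, up to 6 members of each list by p, every member where 5 or fewer were called, members chosen for their role, a fixed panel and the leading differences between weeks. Angptl4, Atp2b4, Ccl24, Fkbp1b, Gbp3, Jak1, Npr1, Pdlim5, Rps2, Scn10a, Tyr and Tyrp1 were named after their values were seen. A few genes that the rule selects are not reported here. Alternatives were TPM as deposited, TPM without mitochondrial and haemoglobin genes, other pseudocounts and filters, array weights, larger fits, a replicate block, each library left out, and voom on the recovered reads. The week 8 fit was tested on simulated data of 12073 genes, 200 of them changed, and recovered 68.7, 97 and 100% of changes of 0.5, 1 and 2, with 10 false calls. With 200 of 12415 changed, the fit for weeks recovered 73.1, 94 and 98.5%, with 11 false calls. The simulated noise was independent between genes and libraries, few genes were changed and no rescaling was simulated. These rates therefore leave out the choice of scaling and a heart shifted over many genes, such as CAC replicate 3. Python 3.11.15, numpy 2.4.6, pandas 2.3.3, scipy 1.17.1 and matplotlib 3.10.9 were used.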

Additional observations from a re-analysis of the deposited data

Results flagged for a closer look

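A sample is singled out where its gap to the nearest heart of its group exceeded Dixon's 95% critical value on the log2 scale, which chance gives in about 1 of 20 groups. Of 428 gene and group pairs tested, 74 met this. CAC replicate 3 accounted for 57 of them, the heart that lay between the arms. Values are rescaled TPM.

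CAC replicate 3 was the lowest of 7 CAC hearts for the acute-phase genes Serpina3n (60.5), Lcn2 (3.55), Socs3 (10.1), Serpina3i (11.9), Serpina3m (0.556), Itih4 (7.80) and Osmr (8.04). The same held for the regulators Stat3 (40.5), Bcl3 (5.34) and Cebpd (18.6) and for C1qa (107), C4b (25.4), Clu (423), Ccl6 (19.2), Ccl9 (7.07), Cxcl13 (0.540), Cd163 (8.78) and Mrc1 (15.5) among complement, chemokine and macrophage genes. It was also the lowest for Mt1 (467), Slc39a14 (16.9), Trf (9.91), Hsd11b1 (6.34), Cdkn1a (8.83), Slc3a2 (20.5), Gadd45g (9.65) and Dnajb4 (57.5) among stress and metal genes. Matrix, vessel and lysosome genes with this heart lowest were Mmp3 (5.98), Eln (6.47), Dcn (528), Vwf (6.07), Ednrb (8.36), Ace (20.6), Ctsz (36.03) and Lamp2 (42.5). Among muscle and channel genes they were Actn1 (16.6) and Mybpc2 (24.2).

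For genes lower in the CAC arm this heart was the highest of 7. These included the muscle and channel genes Mylk4 (41.8), Klhdc8a (8.16), Myh7b (34.3), Mybpc3 (1686), Tnnc1 (3177) and Hcn2 (12.8). They also included the metabolic genes Acadm (432), Cs (846), Sucla2 (228), Oxct1 (624.9), Pdhb (623), Pfkm (501) and Hk2 (91.0), the mitochondrially encoded mt-Co2 (83369.6), mt-Co3 (74538) and mt-Nd1 (39353), and Apln (2.99), Kdr (41.8), Ccnd1 (20.95), Mmp15 (38.7) and Gbp4 (4.39).

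Other CAC hearts were singled out for Nppa, lowest in replicate 5 (59.6), and S100a9, lowest in replicate 1 (7.42). Among NCAC hearts replicate 3 was the highest for Adamts15 (2.89), Mt1 (361), Mt2 (65.7), Myh7 (497), Pdk4 (321) and mt-Nd1 (55994) and the lowest for Aplnr (6.91). Replicate 2 was the lowest for Cebpd (4.93), Kcne4 (1.18), Per1 (8.56) and Slc39a14 (11.3). Replicate 1 was the highest for Ccl8 (3.09) and Serpina3i (1.09) and the lowest for Mybpc3 (1488). Replicate 4 was the highest for Actn1 (13.01).

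The contrast of CAC with NCAC differed between week 8 and week 6 by the interaction test for Myh6 (-0.81), Jph2 (-0.67), Tnnc1 (-0.49), Actn2 (-0.48) and Ndufab1 (-0.47), in log2 units. Each call was lost when certain single libraries were left out, as listed with the weeks above.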

How the results depend on the processing

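Of 214 named genes tested, 187 were called, 154 of these under every alternative planned, and 1, Rps2, changed sign, to 0.10 with TPM as deposited. Calls lost when single libraries were left out are given with the genes. With TPM as deposited, 6042 genes were called higher and 862 lower (583 and 75 by at least 1). Without mitochondrial and haemoglobin genes they were 4016 and 1484. A pseudocount of 0.1 gave 580 higher and 239 lower by at least 1, and voom on recovered reads, added after the data were seen, gave 833 and 442. The cause of these shifts was not tested. Array quality weights, filters at 5 TPM or none, and fits over 42 or 62 libraries kept the week 8 counts within 1.5 times. Of 118 counts by list, 57 moved by more than that with TPM as deposited, 24 without mitochondrial and haemoglobin genes, 28 with the replicate block, 13 to 23 with other filters, weights or fits, and 0 with a pseudocount of 0.1.

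Replicate numbers did not pair the hearts: same-numbered CAC and NCAC hearts had correlations of -0.12, 0.03, -0.19, -0.11 and 0.14 in their deviations from the group means. A fit with the replicate block, on the 5 shared numbers, called 1661 genes higher and 1591 lower, and the interaction 0 and 13. Under this pairing the shares differed by -4.78 (mitochondrial), 0.389 (ribosomal) and -0.945 percentage points (sarcomere), and 5 pairs cannot give an exact p below 0.0625.

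The difference between weeks 8 and 6 gave 0 genes higher with TPM as deposited, with a pseudocount of 0.1 and in a fit on the 22 libraries of both weeks, which also gave 0 lower, and 1 lower with no filter. Leaving out 1 library gave 0 to 157 higher and 0 to 376 lower. The haemoglobin share differed by -0.135 to 0.409 percentage points, the lower end without CAC week 8 replicate 3. Depth limits the low genes: Cd79a, Gzma and Pmel are near 1 TPM or below it.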
